A study of Mus musculus with 2 samples.

Results

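The Myc, Max and Mxd network is described here by 8 genes, Myc, Mycn, Mycl, Max, Mxd3, Mxd4, Mxi1 and Mnt, taken by symbol from the 43437 genes of the deposited table. All 8 were found, with 28 of the 103615 listed isoforms. All 8 had 1 FPKM or more in at least 1 library, as did 14987 genes of the whole table. FPKM scales the fragments of a gene to its transcript length and to the size of the library. Untreated wild-type mouse fetuses of the ICR strain gave the RNA at E12.5. 1 library is of the whole body and the other of the telencephalon, the front part of the embryonic brain that forms cortex and basal ganglia. ICR is an outbred stock. Neither the number nor the sex of the fetuses is given in the labels, nor whether the body kept its head. Because each group is a single library, differences have no replicate check, no p-value is given, and every value describes these 2 libraries.

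Myc, Mycn and Mycl are transcription factors that bind DNA only as dimers with Max, mostly at a short palindrome called the E-box, and promote cell growth and division. The Mxd proteins (Mxi1 is one of them) and Mnt compete for the same partner and the same sites, and recruit the Sin3 corepressor with its histone deacetylases. In the embryo Myc is active in many dividing tissues, including blood and liver, while Mycn is best known for expanding neural progenitors and Mycl for its expression in developing brain.

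A difference is given as log2((telencephalon FPKM + 1)/(whole body FPKM + 1)), called the log2 ratio, and a gene counts as past 2-fold when the ratio is 1 or more in size. Pairs of levels joined by "and" name the whole body first. The libraries corresponded to about 29300000 fragments for whole body and 22700000 for telencephalon, estimated from the FPKM steps of genes with a single isoform. Of 7 telencephalic markers 6 were past 2-fold toward telencephalon, with summed levels of 25.8 and 793 FPKM, and none was lower. All 5 liver markers, all 5 connective tissue markers and all 5 epithelial markers were lower, with summed levels of 1920 and 5.08, 1500 and 15.3, and 95 and 0.897 FPKM. Krt14, Krt18 and Serpina1a were listed at 0 in telencephalon. The 4 neuronal markers found (of 5) and all 5 neural progenitor markers were higher, and none of 5 markers of dividing cells passed 2-fold (summed levels 381 and 308 FPKM). Mki67 came just short of it, at 54.5 and 27.3 FPKM (log2 ratio -0.97). The other dividing cell markers lay between -0.46 (Cdk1) and 0.12 (Top2a). In such mixed tissue, fewer cells of a type and less RNA per cell cannot be told apart.

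Myc was lower in telencephalon and its paralogs Mycn and Mycl were higher, and Mnt was the only other member past 2-fold. By the 2-fold rule 3 of the 8 members were higher, where 9.39% of all 14987 measured genes were. 1 of the 8 was lower, where 21.2% of all genes were, so 4 of 8 differed either way against 30.5%. The median log2 ratio was 0.57 for the 8 members and -0.16 for all measured genes.

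**Figure D1:**
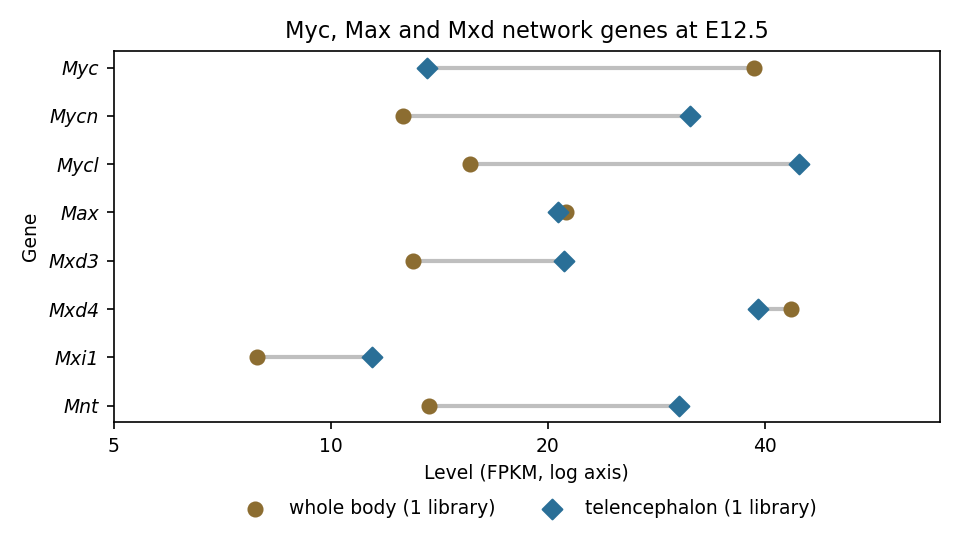
Level of each network gene in FPKM on a log axis, with 1 point for the whole body library and 1 for the telencephalon library, joined by a grey line. Myc runs from 38.7 down to 13.6 FPKM in telencephalon, Mycn and Mycl run the other way, and the points of Max nearly coincide.

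Myc (ENSMUSG00000022346, chromosome 15, 61985391 to 61990374, plus strand, GRCm38) stood at 38.7 FPKM in the body library and 13.6 in telencephalon. That is 2.86-fold lower in telencephalon, a log2 ratio of -1.45, and 13.6% of measured genes had a lower ratio. About 1663 and 408 fragments lie behind the levels. Scaled by depth, their ratio is 3.16-fold lower with an exact 95% interval from 2.83 to 3.53, which, like all intervals here, covers counting error within these libraries only.

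Mycn (ENSMUSG00000037169, chromosome 12, 12936093 to 12941914, minus strand) stood at 12.6 FPKM (whole body) and 31.5 FPKM (telencephalon). It was 2.50-fold higher in telencephalon (log2 ratio 1.26), on about 834 and 1651 fragments, whose depth-scaled ratio is 2.56 with an interval from 2.35 to 2.78. Mycl (ENSMUSG00000028654, chromosome 4, 122995652 to 123002485, plus strand) stood at 15.6 and 44.7 FPKM. At 2.87-fold higher (log2 ratio 1.46) it had the highest ratio of the 8 members, above 95% of all measured genes. Its interval runs from 2.68 to 3.05 on about 1400 and 3098 fragments.

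Of the 3 paralogs Myc ranked first in whole body and last in telencephalon. In whole body Myc made up 57.9% of their summed FPKM, Mycl 23.3% and Mycn 18.8%. In telencephalon Mycl made up 49.8%, Mycn 35.1% and Myc 15.1%. The level of Mycn relative to Myc was 0.325 in whole body and 2.32 in telencephalon, and that of Mycl relative to Myc 0.402 and 3.29. Mycl relative to Mycn stood at 1.24 and 1.42. The summed level of the 3 genes differed less than any of them alone, at 66.9 FPKM in the body library and 89.7 in telencephalon, a ratio of 1.34.

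**Figure D2:**
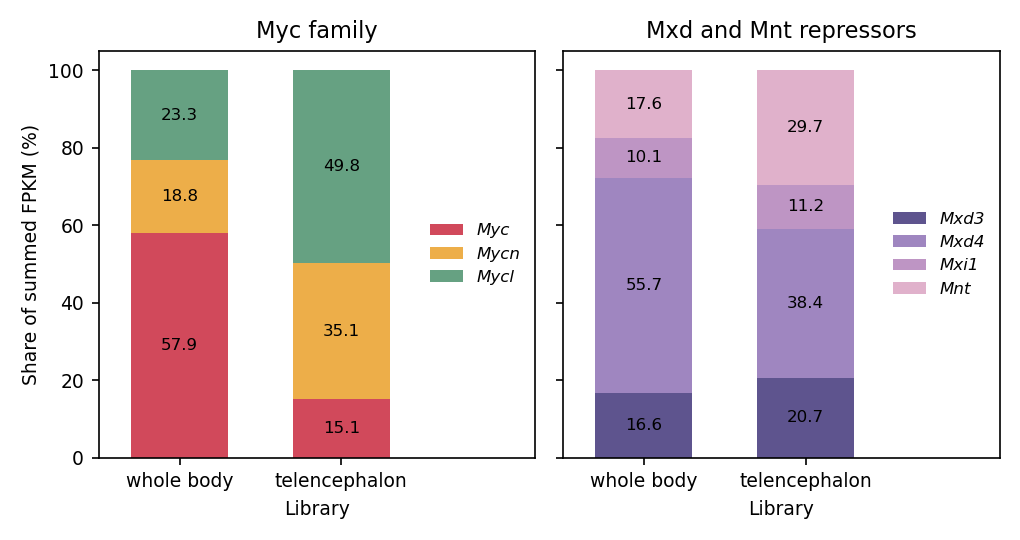
Share of each gene, in percent, in the summed FPKM of the Myc family (left) and of the Mxd and Mnt repressors (right), with 1 bar per library. Myc fills 57.9% of the Myc family bar in whole body and 15.1% in telencephalon, and Mxd4 is the largest repressor share in both.

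The paralogs can be told apart by reads: no stretch of 50 bases of Myc, Mycn or Mycl transcripts occurs in another annotated gene on either strand. The coding stretch shown has the most bases identical in all 3 genes, among Myc windows with their best Mycn and Mycl matches. It lies near the start of each coding region and encodes Myc box I, the conserved segment whose phosphorylated form is bound by the ubiquitin ligase subunit Fbxw7. Over 60 bases, 41 are identical in all 3 genes, and these are in capitals. Myc and Mycn share 45 bases, Myc and Mycl 49, and Mycn and Mycl 46. Whether a pair is more alike elsewhere was not tested. The stretches are chr15:61987651-61987710 (plus strand, exon 2 of Myc-201), chr12:12940205-12940264 (minus strand, exon 2 of Mycn-201) and chr4:122996592-122996651 (plus strand, exon 1 of Mycl-201), all on GRCm38 and read from the GENCODE M21 transcripts.
Myc: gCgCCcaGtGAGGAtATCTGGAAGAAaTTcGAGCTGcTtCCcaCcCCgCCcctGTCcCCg
Mycn: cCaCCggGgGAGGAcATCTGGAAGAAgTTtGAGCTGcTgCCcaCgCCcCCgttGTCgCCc
Mycl: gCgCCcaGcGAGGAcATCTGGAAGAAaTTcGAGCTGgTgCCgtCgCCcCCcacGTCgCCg

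Lower Myc was seen in each of its 3 main isoforms. Myc-201, Myc-206 and Myc-208, which differ mainly at their ends, stood at 12.0, 9.08 and 16.6 FPKM in the body library and at 3.16, 2.97 and 4.64 FPKM in telencephalon. Each was 3.05-fold to 3.80-fold lower. Myc-207 differs from Myc-208 by 3 bases and was listed at 0 in whole body and at 0.864 FPKM in telencephalon. Such near-identical forms are divided by the authors' software, not counted apart. Of the minor isoforms, Myc-202 stood at 0.230 and 0.384 FPKM and Myc-204 at 0.763 and 0.557 FPKM. Myc-203, of 381 bases, was listed at 0 and 0.968 FPKM. Its telencephalon value is 7.14% of the gene and rests on about 1 fragment.

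In Mycn and Mycl the longest isoform held a larger share in telencephalon. Mycn-201, which starts at the upstream first exon, took 67.3% of Mycn in whole body and 80.1% in telencephalon. Mycn-202, which begins further downstream and encodes the same number of codons (462), took 30.4% and 19.9%. In level Mycn-201 was 2.98-fold higher in telencephalon and Mycn-202 1.64-fold. Mycl-201 took 67.7% of Mycl in whole body and 76.4% in telencephalon, and Mycl-202 30.4% and 21.1%. Mycl-201 was 3.23-fold higher, at 10.5 and 34.1 FPKM, and Mycl-202 stood at 4.73 and 9.44 FPKM. As in Myc, these forms were divided by the authors' software and not counted apart, so their shares have no separate check. The same holds for the isoform shares given below.

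Max, the shared partner, was nearly level between the libraries. Max (ENSMUSG00000059436, chromosome 12, 76937269 to 76962201, minus strand) stood at 21.2 FPKM (whole body) and 20.7 FPKM (telencephalon), a log2 ratio of -0.03 that became 0.13 in TPM and 0.03 at a common upper quartile. The depth-scaled ratio of its about 1001 and 750 fragments is 0.967, with an interval from 0.879 to 1.06 that includes equality. Summed Myc family FPKM was 3.15 times that of Max in whole body and 4.33 times in telencephalon. For the 4 repressors the multiples were 3.68 and 4.93, from gene values that include the short Mnt isoform described below.

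The 2 isoforms of Max did differ in share. Max-202 holds a cassette exon that Max-201 lacks, and the exon encodes a short insert just ahead of the basic region that contacts DNA. Max-202 took 27.0% of Max in whole body and 11.5% in telencephalon, standing at 5.73 and 2.39 FPKM. Max-201 stood at 15.5 and 18.3 FPKM. In estimated fragments, Max-202 held 27.2% (exact 95% interval 24.4% to 30.0%) and 11.6% (9.40% to 14.1%). These intervals are too narrow, since only fragments across the exon tell the isoforms apart. The 27-base exon is exon 2 of Max-202 at chr12:76961263-76961289 (minus strand, GRCm38). It adds 9 codons in frame, giving 160 in place of 151. It is shown in capitals between 15 bases of each neighbouring exon, above the junction without it.
Max-202: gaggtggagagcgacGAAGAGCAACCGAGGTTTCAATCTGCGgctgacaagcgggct
Max-201: gaggtggagagcgacgctgacaagcgggct

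**Figure D3:**
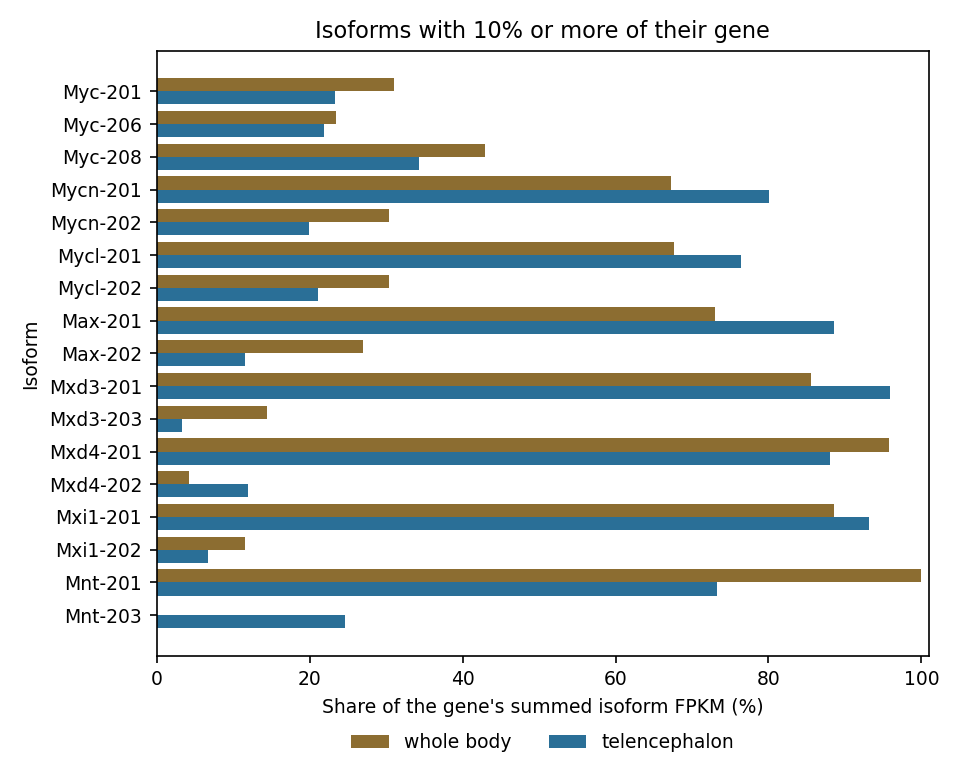
Share of each isoform, in percent, in the summed isoform FPKM of its gene, for the 17 isoforms that held 10% or more in either library, with 1 bar per library. The share of Max-202 is 27.0% in whole body and 11.5% in telencephalon, and Mnt-203 has a bar in telencephalon only.

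Among the repressors, Mnt was past 2-fold and Mxd3, Mxd4 and Mxi1 were not. Mnt (ENSMUSG00000000282, chromosome 11, 74830920 to 74845725, plus strand), the most widely expressed Max-binding repressor, stood at 13.7 FPKM in the body library and 30.4 in telencephalon, 2.21-fold higher (log2 ratio 1.09). The call rests on a short isoform. Mnt-203, a 777-base form annotated as retaining an intron, was listed at 0 in whole body and at 7.46 FPKM in telencephalon, 24.6% of the gene. Of its 777 bases 740 lie in exons of the main isoform Mnt-201, and about 75 fragments were assigned to it. Mnt-201 stood at 13.7 FPKM (whole body) and 22.3 FPKM (telencephalon), 1.62-fold higher. Over protein-coding isoforms alone Mnt stood at 13.7 and 22.9 FPKM, a log2 ratio of 0.70. All fragments of Mnt, about 1722 and 2234, gave a depth-scaled ratio of 1.68 with an interval from 1.57 to 1.78. Mnt was higher in telencephalon on each of these measures, and among them only the deposited gene value was past 2-fold.

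Mxd3, a member of the Mxd group found in dividing progenitors, stood at 13.0 FPKM in the body library and 21.1 in telencephalon (ENSMUSG00000021485, chromosome 13, 55325168 to 55329823, minus strand). Its log2 ratio was 0.67, and the interval of its depth-scaled ratio of 1.53 runs from 1.34 to 1.75 on about 405 and 480 fragments. The coding isoform Mxd3-201 stood at 11.1 and 20.3 FPKM, whereas Mxd3-203, which retains introns, stood at 1.86 and 0.701 FPKM and took 14.4% and 3.32% of the gene. Of its 50-base stretches 97.8% occur in no other annotated gene. The end of Mxd3 overlaps 105 exon bases of Prelid1 on the other strand. The kit does not mark strand, so reads in that stretch cannot be assigned to either gene. Prelid1 stood at 142 and 104 FPKM, and its part in the Mxd3 values was not tested.

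Mxd4, linked to cells that leave the cycle, was the most abundant repressor in both libraries (ENSMUSG00000037235, chromosome 5, 34173883 to 34187720, minus strand). It stood at 43.5 FPKM (whole body) and 39.2 FPKM (telencephalon). The log2 ratio was -0.15 and turned to 0.02 in TPM. The interval of its depth-scaled ratio of 0.843, on about 4384 and 2863 fragments, runs from 0.804 to 0.884. Its shorter isoform Mxd4-202 took 4.25% of the gene in whole body and 12.0% in telencephalon, on about 45 and 88 fragments. Of the 50-base stretches of its transcripts 94.6% occur in no other annotated gene, and the rest are shared with 129 other genes. Their part in the Mxd4 level was not tested. An antisense gene, Gm42846, not matched in the table used here, overlaps 514 exon bases of Mxd4.

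Mxi1, the lowest member in both libraries, stood at 7.91 FPKM in the body library and 11.4 in telencephalon (ENSMUSG00000025025, chromosome 19, 53310518 to 53375810, plus strand). The log2 ratio was 0.48, and the depth-scaled ratio of about 599 and 636 fragments is 1.37 with an interval from 1.22 to 1.54. Mxi1-201, which starts at the upstream first exon, stood at 7.0 and 10.6 FPKM. Mxi1-202 starts further downstream and stood at 0.910 and 0.771 FPKM, 11.5% and 6.76% of the gene. Of its 50-base stretches 97.9% occur in no other annotated gene. The small gene Gm10197, on the other strand within Mxi1, shares 194 exon bases with it and stood at 14.4 FPKM in whole body and was listed at 0 in telencephalon. Its part in the Mxi1 values was not tested.

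Summed over Mxd3, Mxd4, Mxi1 and Mnt, the repressors stood at 78.1 FPKM (whole body) and 102 FPKM (telencephalon), a ratio of 1.31 beside 1.34 for the Myc family. Mxd4 made up 55.7% of the repressor sum in whole body and 38.4% in telencephalon, and Mnt 17.6% and 29.7%. These sums are of gene values, so they include Mnt-203 (0 and 7.46 FPKM) and Mxd3-203 (1.86 and 0.701 FPKM). The ratio of 1.31 and the Mnt share rest in part on these forms, and sums without them were not made. In whole body the order of the 8 levels was Mxd4, Myc, Max, Mycl, Mnt, Mxd3, Mycn and Mxi1. In telencephalon it was Mycl, Mxd4, Mycn, Mnt, Mxd3, Max, Myc and Mxi1. Without replicates it cannot be said which neighbours in these orders differ.

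Beyond the 8 genes, 1 of 5 further proteins of the network, which pair with Max or with its relative Mlx, passed 2-fold. Either way, 30.5% of all measured genes did. Mlxipl, a glucose-responsive factor prominent in liver, stood at 3.03 FPKM in the body library and 0.788 in telencephalon (log2 ratio -1.17), beside the liver marker sums above, and the part of liver RNA in it was not tested. Mxd1 stood at 10.5 and 10.7 FPKM, Mga at 34.0 and 25.1, Mlx at 18.8 and 17.1, and Mlxip at 14.0 and 17.7. The non-coding RNA Pvt1, a neighbour of Myc on chromosome 15, was lower in telencephalon along with it, at 2.95 and 0.738 FPKM (log2 ratio -1.18).

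Coactivators and cofactors of Myc lay within 2-fold. None of 12 passed (median log2 ratio -0.04, and 0.12 in TPM), where 30.5% of all measured genes did. The highest was Zbtb17, a zinc finger partner through which Myc represses genes, at 13.2 FPKM (whole body) and 25.1 FPKM (telencephalon), a log2 ratio of 0.88. Kat5 (0.48) and Actl6a (0.46) followed. The lowest were the helicase-like Ruvbl1 (-0.37), the acetyltransferase Kat2a (-0.29) and Wdr5 (-0.18).

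Among 9 subunits of the Sin3 corepressor and its associates, through which the Mxd proteins and Mnt act, 1 was higher and 1 lower (median 0.09, and 0.26 in TPM). The shares over all measured genes were 9.39% higher and 21.2% lower. Sap30, a Sin3-associated subunit, stood at 10.2 FPKM in the body library and 30.0 in telencephalon (1.47). Rbbp7, a histone-binding subunit, stood at 119 and 51.8 FPKM (-1.18). The scaffold Sin3a stood at 60.5 and 117 FPKM (0.94) and the deacetylase gene Hdac2 at 97.3 and 159 (0.70), while Hdac1 stood at 27.1 and 21.2 (-0.34) and Sap18 at 6.01 and 4.38 (-0.38).

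Of 12 genes that control the stability of Myc proteins, 2 were higher and none lower (median 0.04, and 0.20 in TPM). With 5 FPKM added 1 was higher, and in TPM and at a common upper quartile 3 were. Among all measured genes 9.39% were higher and 21.2% lower by the 2-fold rule. Trim32, a ubiquitin ligase of neural progenitors that targets Myc, stood at 48.3 FPKM (whole body) and 102 FPKM (telencephalon), a log2 ratio of 1.07. Fbxw7, whose protein binds the segment shown above, stood at 7.58 and 16.2 FPKM, with a log2 ratio just at the threshold. Gsk3b, a kinase that phosphorylates this segment, stood at 39.1 and 78.1 FPKM (0.98), just below it. The lowest were the mitotic kinase Aurka (-0.46), which shields Mycn from breakdown, Skp2 (-0.42) and the ubiquitin protease gene Usp7 (-0.40). Isoforms under 300 bases made up 10.8% of the Usp7 level in whole body and 0% in telencephalon. The place of Usp7 among the lowest rests in part on them.

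Genes known to be activated by Myc were mostly lower in telencephalon, by small amounts. Of 24 genes 20 had a log2 ratio below 0 (83.3%, against 58.2% of all measured genes), with a median of -0.64 against -0.16. Past 2-fold were 3 lower and none higher, so 21 lay within 2-fold. By that rule 21.2% of all measured genes were lower and 9.39% higher, so the count of lower genes does not stand out. Gnl3 was no longer past 2-fold with 5 FPKM added, in TPM and at a common upper quartile, which left 2 lower. The median was -0.57 at a common upper quartile and -0.49 in TPM. Tfrc, the transferrin receptor gene, stood at 64.3 FPKM in the body library and 11.8 in telencephalon (-2.35). Ldha, of lactate metabolism, stood at 540 and 218 FPKM (-1.31), and Gnl3, a nucleolar protein of stem cells, at 19.2 and 8.77 (-1.05). Red cell precursors also express Tfrc, and the 5 red cell markers summed to 4540 and 2610 FPKM, with the erythroid factor Gata1 at 26.9 and 0.337. Their part in the Tfrc difference was not tested. The highest were the G1 genes Ccnd2 (90.7 and 141 FPKM, 0.63) and Cdk4 (429 and 527 FPKM, 0.30), followed by Eif4e (0.10). TPM and a common upper quartile can only raise these 3 ratios, so they do not test whether the genes were higher.

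Genes known to be repressed by Myc were not the opposite of these. Of 9 listed, 8 were measured, of which 1 was higher and 4 lower, beside 9.39% and 21.2% of all measured genes. The list median was -0.71. With no floor the median was -0.30, with 5 FPKM added -0.54 and in TPM -0.58, and with 5 FPKM added 3 were lower. The higher gene, Ndrg1, stood at 16.8 FPKM (whole body) and 43.1 FPKM (telencephalon), a log2 ratio of 1.31. Cdkn1b, an inhibitor of cyclin-dependent kinases, stood at 13.2 and 27.3 FPKM (0.99). The lowest were the matrix protein gene Thbs1 (57.4 and 4.62 FPKM, -3.38), the hedgehog-binding protein gene Gas1 (-2.58) and the liver factor gene Cebpa (7.01 and 0.803 FPKM, -2.15). Cdkn1a was also past 2-fold lower, at 16.9 and 7.22 FPKM (-1.12). Gadd45a stood at 10.8 and 9.20 FPKM (-0.21). The connective tissue and liver marker sums given above move with Thbs1 and Cebpa, and their part in these values was not tested.

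**Figure D4:**
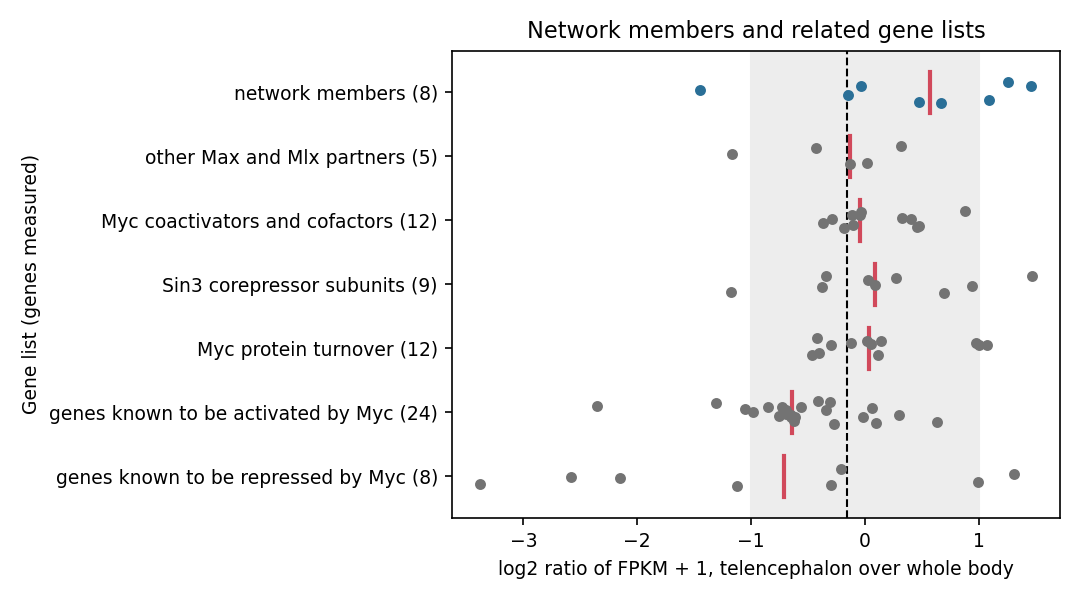
Log2 ratio of FPKM + 1, telencephalon over whole body, for every measured gene of each list, with 1 point per gene spread vertically to separate them. Red bars are list medians, the dashed line is the median of all measured genes (-0.16) and the grey band spans ratios within 2-fold. The members range from -1.45 to 1.46, and 20 of the 24 Myc-activated genes lie below 0.

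The E-box CACGTG, which is the same on both strands, was looked for in RefSeq promoter windows of 300 bases (GRCm38.p6), from 250 bases before a gene's start to 50 after it. Windows were found for 7 of the 8 members, all except Myc. Of these 7 genes 3 held an E-box (42.9%), Max, Mnt and Mxd4, and of all 32851 windows 7.15% did (8.09% of 27025 genes). Neither Mycn nor Mycl held one in its window. Of 19 matched Myc-activated genes 5 did (26.3%), and of 7 matched Myc-repressed genes none. A match is a description and not evidence of binding, and the 3 members with one had log2 ratios of -0.03, 1.09 and -0.15. The stretches around the E-box, which is in capitals, are given for these members because they carry the network's own recognition sequence. They are chr12:76962226-76962271 (minus strand) for Max, chr11:74830781-74830826 (plus strand) for Mnt and chr5:34187904-34187949 (minus strand) for Mxd4. Cdk4 is added as the Myc-activated gene with the most matches, 4 in its window (chr10:127063353-127063539, plus strand).
Max: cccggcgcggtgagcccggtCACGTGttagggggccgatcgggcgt
Mnt: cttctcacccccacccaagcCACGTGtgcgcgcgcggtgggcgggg
Mxd4: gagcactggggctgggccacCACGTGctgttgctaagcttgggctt
Cdk4: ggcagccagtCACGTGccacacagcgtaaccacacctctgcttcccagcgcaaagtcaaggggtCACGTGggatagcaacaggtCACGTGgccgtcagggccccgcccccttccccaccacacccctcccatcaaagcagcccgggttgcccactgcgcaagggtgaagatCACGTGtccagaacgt

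The genes nearest to the members with the highest and the lowest ratio were taken by distance in log2(FPKM + 1) over the 2 libraries, among the 13487 other measured genes left after gene models, Rik-type symbols, mitochondrial genes and small RNA genes were set aside. Nearest to Mycl were Ypel1 (15.3 and 44.7 FPKM), Xpr1 (15.5 and 43.4) and Spata13 (15.8 and 45.9). Nearest to Myc were Plin2 (39.4 and 13.6 FPKM), Ramp2 (40.2 and 13.7) and Cluh (38.0 and 13.0). With only 2 libraries this likeness describes a pair of levels.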

How the data were processed

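The deposited tables hold FPKM per gene and per isoform, which the authors made with TopHat, Cufflinks and Cuffdiff on GRCm38, per the submitters' processing notes. Versions and the annotation release are not given in the sources used here. Total RNA was made into libraries with a TruSeq RNA v2 kit, per the labels' protocols. FPKM are not counts, so no count model was run. Genes were matched by Ensembl identifier to GENCODE M21 (42276 of 43437), which gave coordinates, isoform types and lengths. Fragments were estimated from the FPKM steps of single-isoform genes, with 323 and 336 bases subtracted from lengths. As a check on longer genes (2000 bases and up) outside the fitted step, 92.7% of 784 and 90.4% of 927 values were whole within 0.1 fragments. Log2 ratios used a pseudocount of 1 FPKM, and a gene was measured where its higher library reached 1 FPKM. The depth fit and the calling were tested on simulated data. TPM values are FPKM divided by the library's sum. From each list the 3 highest and 3 lowest measured genes are named (all of a list of 5), with a few others chosen after their values were seen. Members and lists were chosen with earlier results of these data known. Python 3.11.15, pandas 2.3.3 and scipy 1.17.1 were used.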

Additional observations from a re-analysis of the deposited data

How the results depend on the processing

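Pseudocounts of 0.1 and 5 FPKM, no floor and a floor of 5 FPKM, TPM, a common upper quartile and leaving out isoforms under 300 bases were tried. The use of protein-coding isoforms alone was chosen after seeing the data. Myc stayed lower and Mycn and Mycl higher past 2-fold in all of these, whereas Mnt did not. The floors cannot change a log2 ratio, and every member stood above 5 FPKM in both libraries, so they do not test the members. With 5 FPKM added, log2 ratios were -1.24 for Myc, 1.05 for Mycn, 1.27 for Mycl and 0.92 for Mnt, which leaves 2 members higher in place of 3. Protein-coding isoforms alone gave Mnt 0.70, also with 2 members higher. In TPM, which moved the median of all genes from -0.16 to -0.02, ratios were 1.45 for Mycn, 1.65 for Mycl, 1.28 for Mnt, 0.66 for Mxi1, 0.13 for Max and 0.02 for Mxd4. The count of further Max and Mlx partners that were lower became 0 with 5 FPKM added and with the floor of 5 FPKM. Cofactors that were higher became 1 in TPM, and Sin3 subunits 2 in TPM and at the common upper quartile. Turnover genes that were higher became 1 with 5 FPKM added and 3 in TPM and at the common upper quartile. Myc-repressed genes that were higher became 2 with 0.1 FPKM added, in TPM and at the common upper quartile, and those lower became 3 with 5 FPKM added. Myc-activated genes that were lower became 2 with 5 FPKM added, in TPM and at the common upper quartile. The median of the further partners turned to 0.03 in TPM, and that of the cofactors to 0.12 in TPM and 0.03 at the common upper quartile. Medians also moved to 0.26 for Sin3 subunits and 0.20 for turnover genes in TPM, and to -0.30 with no floor for Myc-repressed genes. The cause was not tested beyond what each setting does by construction. Leaving out isoforms under 300 bases, or those under 0.1 FPKM in both libraries, removed no member isoform with a value, so it does not test the isoform shares or the members' ratios. Over 2000 bases 1 fragment adds 0.0203 FPKM in whole body and 0.0264 in telencephalon, so depth matters little for isoforms of that length. On short isoforms a fragment weighs more. Myc-203, of 381 bases, was listed at 0.968 FPKM in telencephalon on about 1 fragment. No paired analysis was possible because each group has 1 library.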
